A study of Mus musculus with 15 samples.

Results

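The genes described here encode the proteins of the cytosolic ribosome. They were taken as the non-control array probes whose gene name has the form Rpl or Rps followed by a digit, or is Rplp0, Rplp1, Rplp2 or Rpsa, leaving out the Rps6k kinases and pseudogene names. The probe with the highest mean log2 signal stood for each gene. This gave 86 genes, read by 191 probes, among the 27542 genes or single-probe transcripts that were tested, and all 86 were among those tested. Of the 86, 46 encode proteins of the large subunit and 31 proteins of the small subunit. A further 8 are paralogs with a name of the same form (Rpl3l, Rpl10l, Rpl22l1, Rpl39l, Rpl7l1, Rpl36al, Rps27l and Rps4y2, which is now called Rps4l). The last, Rps19bp1, matches the name rule but encodes a protein that binds Rps19 and is no ribosomal protein. The 77 genes of the large and small subunits are called the subunit genes below.

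The samples were livers of C57BL/6J mouse pups on postnatal day 1, 1 Agilent one-colour array per pup. Of the KO pups, which had inherited from their mother a chromosome lacking the miR-379/miR-410 cluster of microRNA genes, 7 were hypoglycaemic KO, with a blood glucose of 9 to 33 mg/dl, and 3 were normoglycaemic KO, with 44 to 56 mg/dl. The design text calls these groups severely and mildly hypoglycaemic. The 5 wild-type littermates had 50 to 72 mg/dl. The deletion was inherited, so it is not limited to the liver. The KO groups differ in glucose by construction. The question put to these genes was whether their transcript levels differ between the groups and with blood glucose.

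Each ribosome holds 1 copy of nearly every ribosomal protein, and cells make these proteins in step with ribosomal RNA. Many of their mRNAs begin with a run of pyrimidines, the 5′ terminal oligopyrimidine (TOP) tract, through which the nutrient-sensing kinase mTORC1 and the RNA-binding protein LARP1 control their translation. This control acts mainly on how much protein is made from each mRNA, which the arrays do not measure. In the newborn liver these mRNAs are among the most abundant, since the organ grows fast and secretes much protein. Outside the ribosome Rpl5 and Rpl11 bind MDM2, the inhibitor of p53, and Rps6 is the substrate of the S6 kinases downstream of mTORC1.

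The starts of 3 subunit genes with a TOP tract at the annotated first base are printed first, since their values recur below. Those of 2 subunit genes without one near that base and of a paralog follow. Whether liver transcripts begin at the annotated base was not tested. Each line gives 10 bases before the annotated transcription start and 20 bases from it, 5′ to 3′ on the strand of the gene. Capitals mark a tract of a C followed by at least 4 further C or T within 5 bases of the start, searched on the gene's own strand only.
Rps6, chr4:86857348-86857377, minus strand: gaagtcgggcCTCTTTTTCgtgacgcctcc
Rplp2, chr7:141447641-141447670, plus strand: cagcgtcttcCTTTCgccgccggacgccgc
Rps27, chr3:90213629-90213658, minus strand: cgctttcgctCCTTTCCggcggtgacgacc
Rpl5, chr5:107900518-107900547, plus strand: cgtcgcttgcgtgctggtggtgctacatac
Rps3, chr7:99483690-99483719, minus strand: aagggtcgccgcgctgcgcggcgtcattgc
Rpl22l1, chr3:28805498-28805527, plus strand: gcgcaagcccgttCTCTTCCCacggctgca

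These sequences are from RefSeq on GRCm38.p6, a later build than the mm9 of the arrays, and the first 10 bases of each line lie outside the annotated transcript. A start was found for 57 of the 77 subunit genes. A tract began at the first base in 13 of the 57 and within 5 bases of it in 27. Among the 27025 genes with a start in that table the shares were 3.01% and 21.2%. The other subunit genes had no start there, and the values were not split by the tract.

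Levels below are log2 signal relative to the 75th percentile of the non-control spots of the same array. A difference is a log2 difference of group means, in which 1 is a doubling. Each level is the reading of 1 probe and is compared across pups only, not between genes. All 77 subunit genes were well above background on all 15 arrays, and no non-control spot was saturated, the brightest reading of a ribosomal protein gene being at 55.5% of the scanner's saturation value. Of the 86 genes, 84 were well above background on every array. The exceptions were Rpl3l, on 12 arrays, and Rpl10l, on 4. Hepatocyte markers had mean levels of 8.28 to 8.65 over 9 genes in all livers. Mirg, the host transcript of the deleted cluster, read −3.02 to −1.23 in 6 hypoglycaemic KO livers, −2.80 to −2.68 in normoglycaemic KO livers and 0.88 to 1.60 in wild-type livers. The library labelled hypoglycaemic KO replicate 2 had 0.66, which goes against its label, and the main results are also given without it. Transcripts of the exocrine pancreas stood out in hypoglycaemic KO replicate 3, normoglycaemic KO replicate 2 and wild-type replicate 2 (mean level of 12 genes 2.89, 5.82 and 2.79, against 0.38 or lower in the other 12). The arrays lay on 2 slides, each with all 3 groups. Slide 1 held wild-type replicates 1 and 2, normoglycaemic KO replicates 1 and 2 and hypoglycaemic KO replicates 1 to 4. Slide 2 held the others, with normoglycaemic KO replicate 3 as the only liver of its group.

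No ribosomal protein gene differed between hypoglycaemic KO and wild-type livers past the test, but with arrays scaled to their 75th percentile the differences of the subunit genes had 1 sign. All 77 subunit genes had a higher mean in hypoglycaemic KO livers, by 0.002 for Rpl14 up to 0.21 for Rpl5, with a median of 0.074, which is 1.05-fold. Of all 86 genes 81 were above 0, beside 52.7% of all genes tested, whose median was 0.0155. The median of the 86 was 0.075 with normexp background correction, with 79 above 0, and 0.063 with array medians, with 80 above 0. The differences were smaller, with more genes below 0, after quantile normalization and in the deposited values. After quantile normalization the median of the 86 was 0.024 with 66 above and 20 below 0, and in the deposited values it was 0.026 with 63 above and 23 below 0. The subunit genes are not independent of each other, so their count is not a count of separate findings.

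Each subunit gene's level was then taken relative to its wild-type mean, and the median of the 77 values gave 1 shift per liver. In hypoglycaemic KO livers the shift ran from 0.036 over a median of 0.076 to 0.11. In normoglycaemic KO livers it was −0.003, −0.083 and 0.006 in replicates 1 to 3. In wild-type livers it was 0.013, −0.14, 0.043, 0.03 and 0.039 in replicates 1 to 5. The hypoglycaemic KO livers thus lay above all normoglycaemic KO livers and overlapped with wild type, where 1 liver stood far below the other 4. The separation of the KO groups held with normexp background correction, at 0.043 to 0.11 in hypoglycaemic KO and −0.079 to 0.024 in normoglycaemic KO livers. The KO groups overlapped in the other 3 processings. After quantile normalization the shift was −0.028 to 0.053 in hypoglycaemic KO and 0.011 to 0.025 in normoglycaemic KO livers. With array medians it was −0.026 to 0.153 in hypoglycaemic KO and −0.127 to −0.019 in normoglycaemic KO livers. In the deposited values it was −0.024 to 0.051 in hypoglycaemic KO and 0.005 to 0.021 in normoglycaemic KO livers.

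**Figure D1:**
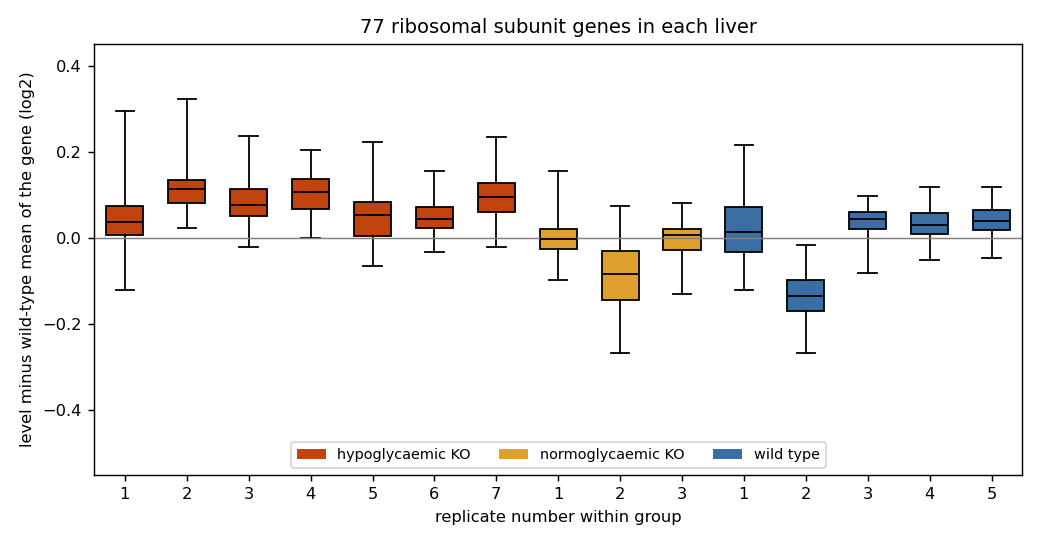
Level of the 77 subunit genes in each liver, relative to the wild-type mean of the same gene (y axis, log2), for hypoglycaemic KO, normoglycaemic KO and wild-type replicates (x axis). Boxes show quartiles and median over genes and whiskers the full range. The medians of the 7 hypoglycaemic KO livers lie between 0.036 and 0.11, and wild-type replicate 2 lies lowest of all at −0.14.

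Wild-type replicate 2 read lowest of the wild-type group for 72 of the 77 subunit genes, and below the mean of the other 4 wild-type livers for all 77, by a median of 0.168. It also had the highest blood glucose, 72 mg/dl, and the pancreatic transcripts named above. Without it the median difference of the 86 genes between hypoglycaemic KO and wild-type livers was 0.039 in place of 0.073, with 75 in place of 81 above 0. Without the 3 livers richest in pancreatic transcripts it was 0.040, and the part of the other cells' RNA in the difference was not tested. Within slide 1, where wild-type replicate 2 was 1 of 2 wild-type livers, it was 0.138, and within slide 2 it was 0.023. Without the library labelled hypoglycaemic KO replicate 2 it was 0.066.

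Of the 86 genes, 0 passed at an adjusted p under 0.05 over all genes, beside 0.0182% of all genes tested, 5 of 27542 (limma with Benjamini-Hochberg adjustment). The smallest adjusted p of a ribosomal protein gene was 0.152 (limma). At an unadjusted p under 0.05 there were 5 of 86 higher and 0 lower, beside 9.7% and 8.96% of all genes. Among them were Rpl5, Rpl9, Rpl12 and Rps19. With a variance trend and robust fitting in limma, 18 of the 86 were under 0.05 unadjusted, in either direction. There 0 of the 86 passed the adjusted threshold, where 121 of all genes did, and the unadjusted share over all genes was not counted. The standard errors of the 77 differences ran from 0.05 to 0.075, and no 95% confidence interval of a subunit gene reached below −0.133 or above 0.367.

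Rpl5, which with Rpl11 and 5S rRNA forms the complex that binds MDM2, had the largest difference of a subunit gene. It read 6.13 to 6.33 with a median of 6.24 in hypoglycaemic KO livers, 6.17, 6.09 and 5.94 in normoglycaemic KO livers and 6.23, 5.88, 5.97, 5.99 and 6.03 in wild-type livers. Its levels overlapped because wild-type replicate 1 was as high as the middle of the hypoglycaemic KO livers. The difference from wild type was 0.21 (SE 0.07, limma adjusted p = 0.152). Rpl11, its partner, read 8.51 to 8.60 in hypoglycaemic KO, 8.47 to 8.51 in normoglycaemic KO and 8.42 to 8.58 in wild-type livers. Its difference was 0.04 (SE 0.05), and whether the partners differ from each other was not tested.

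In 3 genes every hypoglycaemic KO liver lay above every wild-type liver, Rpl6, Rpl9 and Rpl19, all of the large subunit, which is 3 of 86 beside 0.712% of all genes, and 0 were lower without overlap, beside 0.752%. The count was 1 under each of 4 other processings, beside 0.614% after quantile normalization, 0.41% with array medians, 0.621% with normexp background correction and 0.595% in the deposited values. They are named because of that count, after their values were seen. Rpl9 read 8.43 to 8.52 with a median of 8.49 in hypoglycaemic KO livers, 8.36, 8.34 and 8.37 in normoglycaemic KO livers and 8.34, 8.22, 8.42, 8.38 and 8.41 in wild-type livers. The gap between the groups was thus small beside the spread within them (difference 0.13, SE 0.05, limma adjusted p = 0.2). Rpl6 differed by 0.10 and Rpl19 by 0.10 (SE 0.05 each, limma adjusted p = 0.347 and 0.312).

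The proteins of the ribosomal stalk, Rplp0, Rplp1 and Rplp2, which recruit elongation factors, differed by 0.06, 0.06 and 0.05. Rplp0, often used as a reference transcript, read 8.83 ± 0.04 in hypoglycaemic KO livers (SD, n = 7) and 8.77 ± 0.06 in wild-type livers (SD, n = 5). In the small subunit, Rps6 differed by 0.09, Rps3 near the mRNA entry channel by 0.10, Rps12 by 0.07 and Rpsa, also known as a laminin receptor, by 0.06. Rps19, the gene most often mutated in human Diamond-Blackfan anaemia, differed by 0.12 (SE 0.05, limma adjusted p = 0.233). Rps27a, made as a fusion with ubiquitin, differed by 0.08, Rpl13a by 0.09, Rpl22 by 0.08 and Rpl36a by 0.12.

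**Figure D2:**
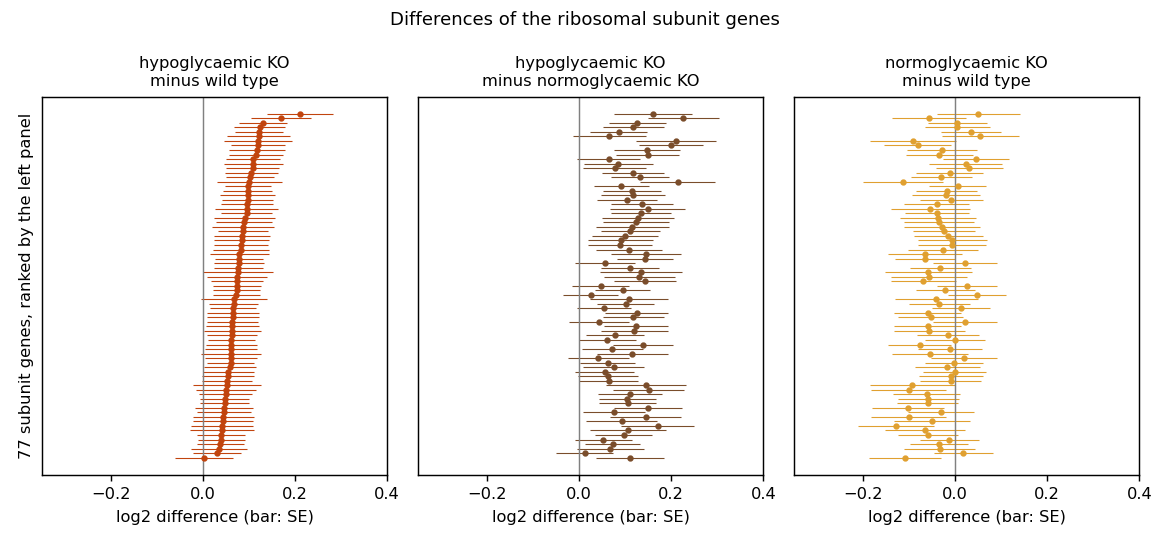
Log2 difference of group means (x axis, bars are the standard error) of the 77 subunit genes, ranked by the left panel. In the left and middle panels all 77 points lie above 0, with medians of 0.074 and 0.11, and in the right panel 60 of 77 lie below 0.

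Between the KO groups the differences of the subunit genes again had 1 sign. All 77 subunit genes had a higher mean in hypoglycaemic than in normoglycaemic KO livers, the lowest being 0.012 for Rpl41, with a median of 0.11. Of the 86 genes 81 were above 0, beside 48.9% of all genes. In 31 of the 86 all 7 hypoglycaemic KO livers lay above all 3 normoglycaemic KO livers, beside 5.08% of all genes, and in 0 they lay below, beside 3.95%. These were 30 subunit genes and the paralog Rpl22l1. Of the 86 genes 0 passed at an adjusted p under 0.05, beside 0.0545% of all genes (limma), and at an unadjusted p under 0.05 there were 8 higher and 0 lower, beside 9.37% and 9.97%. Among them were Rpl22l1, Rps27 and Rps27a. With a variance trend and robust fitting in limma, 37 of the 86 were under 0.05 unadjusted, in either direction. There 0 of the 86 passed the adjusted threshold, where 204 of all genes did, and the unadjusted share over all genes was not counted.

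The no-overlap count depended on how the arrays were made comparable. It was 20 of 86 beside 5.26% when arrays were scaled to their median, 18 beside 4.98% with normexp background correction, and 5 beside 4.36% after quantile normalization, which forces all arrays to 1 distribution. The authors' deposited log2 values gave 5 of 86 beside 4.33%. After quantile normalization the median difference was 0.011, with 47 genes above and 39 below 0. Without normoglycaemic KO replicate 2 the count was 32 beside 6.07% and the median 0.073. Without the 3 livers richest in pancreatic transcripts it was 33 beside 6.73%, with a median of 0.074. Without the library labelled hypoglycaemic KO replicate 2 the count was 31 beside 6.2%. The median was 0.123 within slide 1 and 0.060 within slide 2, where normoglycaemic KO replicate 3 alone stood for its group.

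Rps27, a zinc-finger protein of the small subunit, was among the 3 genes with the largest gap between the KO groups among the subunits. It read 7.93 to 8.09 with a median of 7.95 in hypoglycaemic KO livers, 7.84, 7.65 and 7.83 in normoglycaemic KO livers and 7.96, 7.67, 7.88, 8.00 and 7.92 in wild-type livers. The normoglycaemic KO livers lay below all hypoglycaemic ones and within the wild-type range except for the lowest. The difference between the KO groups was 0.21 (SE 0.08, limma adjusted p = 0.178). The array annotation places this probe on chromosome 9, while the gene lies on chromosome 3, and whether it reads another copy was not tested. The other 3 probes kept for Rps27 differed by 0.156, 0.178 and 0.177.

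For Rps3 the hypoglycaemic KO livers read 6.94 to 7.15 with a median of 7.04, the normoglycaemic KO livers 6.93, 6.85 and 6.91, and the wild-type livers 6.92, 6.85, 6.95, 7.00 and 6.97. The KO groups met at 6.93 and 6.94 without overlap, and both overlapped with the wild-type livers. The difference between them was 0.13 (SE 0.06, limma adjusted p = 0.281). Rps27a differed by 0.14 (adjusted p = 0.223, limma) and Rplp2 by 0.15 (adjusted p = 0.289, limma).

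Markers of other cells were read beside this comparison. Of 9 granulocyte genes 9 had a higher mean in hypoglycaemic than in normoglycaemic KO livers (median difference 0.25), and their mean level was 5.25 to 5.57 in hypoglycaemic KO, 4.99 to 5.49 in normoglycaemic KO and 5.20 to 5.44 in wild-type livers. Of 9 red-cell genes 3 were higher, with mean levels of 4.13 to 4.86, 4.44 to 4.76 and 4.31 to 4.83 in the same groups. Of 9 hepatocyte genes 3 were higher, with mean levels of 8.31 to 8.48, 8.42 to 8.51 and 8.28 to 8.65. Of 8 B-lineage genes 2 were higher. Of 12 pancreatic genes 0 were higher, with a median difference of −1.25, and their mean level was −3.31 to 2.89 in hypoglycaemic KO and −2.999 to 5.82 in normoglycaemic KO livers. In hypoglycaemic KO against wild-type livers 7 of 9 granulocyte genes were higher (median 0.20), 2 of 9 hepatocyte genes (median −0.07), 2 of 9 red-cell genes (median −0.05), 3 of 8 B-lineage genes (median −0.04) and 6 of 12 pancreatic genes (median 0.004). Every one of these markers was well above background on at least 1 array. The part of these cells in the ribosomal protein levels was not tested. In bulk liver a smaller share of cells of a type and less RNA per cell cannot be told apart.

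Between normoglycaemic KO and wild-type livers most differences were below 0, and their median changed sign with the scaling. The median of the 86 genes was −0.032, with 20 above and 66 below 0, beside 52.8% above 0 among all genes. It was 0.019 after quantile normalization and in the deposited values, −0.067 with array medians and 0.015 within slide 1. Within slide 2, where normoglycaemic KO replicate 3 alone stood for its group, it was −0.041. Without normoglycaemic KO replicate 2 it was 0.001, and without wild-type replicate 2 it was −0.062. Of the 86 genes 0 passed, beside 0% of all genes (limma), and at an unadjusted p under 0.05 there were 0 higher and 0 lower, beside 3.07% and 1.72%. Groups without overlap were seen for 0 genes in either direction, beside 2.35% higher and 1.54% lower, but for 6 higher after quantile normalization, beside 2.29%, and 3 in the deposited values, beside 2.17%. The intervals of the subunit genes reached from −0.307 to 0.244.

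Normoglycaemic KO replicate 2 read lowest of its 3 livers for 65 of 77 subunit genes. Its mean level of pancreatic transcripts was 5.82. Hypoglycaemic KO replicate 3, at 2.89, had a shift of 0.076, and wild-type replicate 2, at 2.79, a shift of −0.14. The part of the pancreatic transcripts was not tested. The lowest difference from wild type of a subunit gene was −0.13, for Rpl30, and the highest 0.06, for Rpl36a.

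With both KO groups weighted equally against wild type the median of the 86 genes was 0.023, with 67 above 0 beside 54% of all genes. Of the 86 genes 0 passed, beside 0.00726% of all genes (limma), and at an unadjusted p under 0.05 there were 0 higher and 0 lower, beside 3.51% and 3.06%. Without wild-type replicate 2 the median was −0.009, with 32 above 0. The comparisons share the wild-type livers or the hypoglycaemic KO livers with each other, so their values are not separate observations.

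Blood glucose was set against these levels within groups, because the KO groups were formed by it. In a model with group means and 1 common slope the median slope of the 86 genes was −0.021 per 10 mg/dl, with 66 below 0 beside 56% of all genes. Of the 86 slopes 0 passed, beside 0% of all genes (limma). At an unadjusted p under 0.05 there were 0 higher, beside 8.12%, and 1 lower, beside 9.97%. With a variance trend and robust fitting in limma there were 9 in either direction, and 0 passed, where 509 of all genes did. Rps27 had a slope of −0.07 and Rps19bp1 of 0.06 per 10 mg/dl (limma adjusted p = 0.286 and 0.291).

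The direction of the slopes rested on wild-type replicate 2. Without it the median slope was 0.003 with 49 of 86 above 0, and without the 3 livers richest in pancreatic transcripts it was 0.017. It was −0.022 within slide 1 and 0.015 within slide 2. Within the 7 hypoglycaemic KO livers the shift of the subunit genes and glucose had a Pearson r of 0.48 and a Spearman rho of 0.57. Without the 2 livers farthest in glucose, at 29 and 33 mg/dl, r was −0.02 over 5 livers. With array medians r was 0.69 over the 7 and 0.38 over the 5, after quantile normalization −0.04 and 0.64, with normexp background correction 0.45 and −0.16, and in the deposited values −0.20 and −0.11. The median level of the subunit genes, in place of the shift, had an r of 0.719 and a rho of 0.821 over the 7. The sign and size of the relation thus depended on the scaling, the measure and the livers. The other groups have fewer than 6 livers. These correlations are descriptions of 1 measure over many genes and were not tested.

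**Figure D3:**
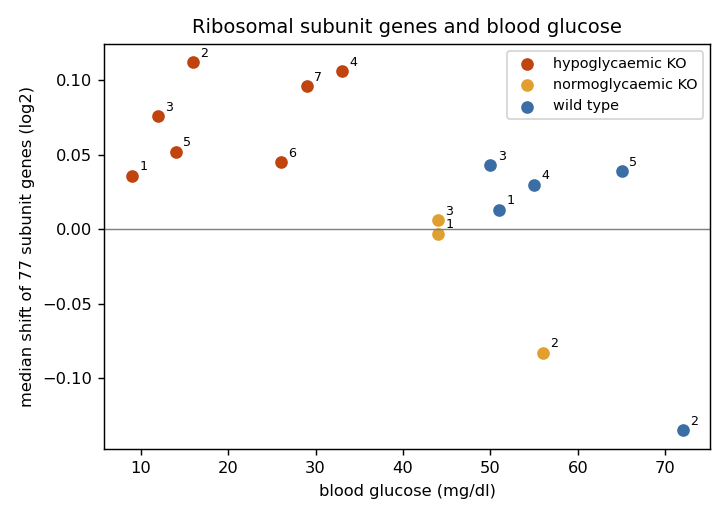
Median shift of the 77 subunit genes relative to wild type (y axis, log2) against blood glucose (x axis, mg/dl), 1 point per liver with its replicate number, for hypoglycaemic KO, normoglycaemic KO and wild type. Wild-type replicate 2, at 72 mg/dl, lies lowest at −0.14, and the hypoglycaemic KO livers, at 9 to 33 mg/dl, lie between 0.036 and 0.11.

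The subunit genes varied little within groups, and together. Their within-group SD had a median of 0.067, from 0.043 to 0.11, while the median over all genes was 0.25. Their probes were bright, the dimmest being above 93.9% of all genes tested in mean signal. Their SD was not compared with that of equally bright genes. The steadiest were Rps12, Rpl19 and Rpl11. After removal of the group means the median correlation between 2 subunit genes over the 15 livers was 0.62, with 96.9% of 2926 pairs above 0, and it was 0.046 between subunit genes and all other genes. The genes of a liver share its array and its scaling, which bears on these values. The median was 0.82 when arrays were scaled to their median, 0.18 after quantile normalization and 0.16 in the deposited values. Without wild-type replicate 2 it was 0.36 over 14 livers.

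The genes took part in this shared movement to different degrees. Each gene's deviations were correlated with the median deviation of the other subunit genes over the same 15 livers. The coefficient was highest for Rps28, at 0.97, and above 0.5 for 68 of the 77. It was lowest for Rpl5, at 0.25, Rpl36a, at 0.32, and Rps7, at 0.34, while Rplp0 had 0.38 and Rpsa 0.45. Rpl5, with the largest difference from wild type, was thus the subunit gene that followed the rest least.

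Of the 8 paralogs 4 were above 0 in hypoglycaemic KO against wild-type livers, with a median of 0.021. Rpl22l1, the paralog of Rpl22, read 6.29 to 6.56 with a median of 6.39 in hypoglycaemic KO livers, 6.12, 6.04 and 6.13 in normoglycaemic KO livers and 6.37, 5.95, 6.35, 6.26 and 6.30 in wild-type livers. The normoglycaemic KO livers lay below all hypoglycaemic ones, and 4 of the 5 wild-type livers lay above the normoglycaemic KO group. The difference between the KO groups was 0.32 (SE 0.1, limma adjusted p = 0.115), the highest of the 86 genes apart from Rpl10l, and the difference of hypoglycaemic KO from wild type was 0.17 (SE 0.08, limma adjusted p = 0.272). Rpl22 itself differed by 0.11 between the KO groups (SE 0.07).

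Rps27l, a p53 target, read 5.68 to 6.13 with a median of 5.92 in hypoglycaemic KO livers, 5.97, 5.98 and 6.03 in normoglycaemic KO livers and 5.76, 6.03, 6.12, 6.09 and 6.08 in wild-type livers. Its ranges overlapped, and it differed by −0.10 from wild type in hypoglycaemic KO livers (SE 0.09). Rpl36al differed by −0.08 and Rps19bp1 by −0.11 (limma adjusted p = 0.466 and 0.387), while Rps4y2 differed by 0.08 and Rpl7l1 by 0.06. Rpl3l, known from striated muscle, and Rpl39l, known from testis, were dim and differed by 0.17 and −0.02 with standard errors of 0.41 and 0.25.

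Rpl10l, a testis paralog, was well above background on 2 hypoglycaemic KO, 0 normoglycaemic KO and 2 wild-type arrays. Its values of 2 hypoglycaemic KO livers are missing because their spots were marked as faulty, and no fold is given for it. The correlation with the median deviation of the subunit genes was −0.37 for Rpl39l, −0.01 for Rpl36al, 0.08 for Rpl7l1, 0.25 for Rps27l, 0.32 for Rpl3l, 0.36 for Rps4y2 and 0.63 for Rpl22l1. Whether paralogs and subunit genes differ in this was not tested. Many ribosomal protein genes have near-identical pseudogene copies, and a probe may read these as well.

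Further probes of the same genes were read as a check on the choice of probe. For 58 of the 86 genes 104 other probes were kept, and 93 of them were higher in hypoglycaemic KO than in wild-type livers, with a median of 0.09. Against normoglycaemic KO livers 98 of the 104 were higher, with a median of 0.098. The probes share livers and scaling with those that stood for the genes.

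Of 3 components of the ribosome outside the name rule, 2 were above 0 in hypoglycaemic KO against wild-type livers. Rack1, a scaffold protein on the small subunit, read 8.68 to 8.75 with a median of 8.73 in hypoglycaemic KO livers, 8.60, 8.61 and 8.59 in normoglycaemic KO livers and 8.58, 8.53, 8.64, 8.54 and 8.62 in wild-type livers. All hypoglycaemic KO livers lay above both other groups (difference from wild type 0.14, SE 0.05, limma adjusted p = 0.161). Fau, which makes a small-subunit protein fused to a ubiquitin-like domain, differed by 0.004 from wild type (SE 0.08).

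Genes that act with ribosomal proteins were followed in lists written with earlier results of these data known. Of 20 translation factors, listed as products of TOP mRNAs, 19 were above 0 in hypoglycaemic KO against wild-type livers, beside 52.7% of all genes. Their median was 0.14, with 0 called. A start was found for 15 of them, with a tract at the first base in 3 and within 5 bases of it in 6. Eef2, which moves the ribosome along the mRNA, differed by 0.18, Pabpc1, the poly(A)-binding protein, by 0.22, Tpt1 by 0.10 and Eef1a1 by 0.09 (limma adjusted p from 0.202 to 0.472). Of 31 initiation factors 29 were above 0, with a median of 0.12 and 0 called. Without wild-type replicate 1, 1 gene of each of these lists passed, where 751 of all genes did.

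The genes of ribosome biogenesis and RNA polymerase I had a higher median difference than the ribosomal proteins, and whether the lists differ was not tested. Of 59 measured, 55 were above 0 in hypoglycaemic KO against wild-type livers, with a median of 0.25. None passed over all genes (limma), and 37 were higher at an unadjusted p under 0.05, beside 9.7% of all genes. The median was 0.25 after quantile normalization, 0.24 with array medians and in the deposited values, 0.28 without wild-type replicate 2, 0.26 without the 3 livers richest in pancreatic transcripts, and 0.18 and 0.34 within slides 1 and 2. Without wild-type replicate 1 the median was 0.29 and 18 of the 59 passed, where 751 of all genes did. Without the library labelled hypoglycaemic KO replicate 2 it was 0.29 and 1 passed, where 138 of all genes did. Against normoglycaemic KO livers 46 of 59 were above 0, with a median of 0.20, and 0 passed. That median was 0.066 within slide 1 and 0.352 within slide 2, the latter against normoglycaemic KO replicate 3 alone. Leaving out wild-type replicate 2 keeps it as it was, but 2 of the 59 passed there, where 304 of all genes did. In normoglycaemic KO against wild-type livers the median was 0.06, with 48 above 0. It was 0.027 with 35 above 0 with array medians, and −0.030 with 23 above 0 within slide 2. In hypoglycaemic KO against wild-type livers the median of the biogenesis list thus ran from 0.18 within slide 1 to 0.34 within slide 2. In the same settings that of the ribosomal protein genes ran the other way, from 0.138 within slide 1 to 0.023 within slide 2.

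Npm1, a nucleolar chaperone of ribosome assembly, read 6.43 to 6.77 with a median of 6.59 in hypoglycaemic KO livers, 6.35, 6.22 and 6.13 in normoglycaemic KO livers and 6.70, 5.92, 6.18, 6.05 and 6.20 in wild-type livers. Only wild-type replicate 1 reached into the hypoglycaemic KO range. The difference was 0.38 (SE 0.11, limma adjusted p = 0.124). Ncl, nucleolin, differed by 0.25 (SE 0.09, limma adjusted p = 0.157), and Fbl, the fibrillarin that methylates ribosomal RNA, by 0.08 (SE 0.09).

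The 78 mitochondrial ribosomal protein genes, which serve another ribosome, had both signs. Of them 32 were above 0 in hypoglycaemic KO against wild-type livers, with a median of −0.03. At an unadjusted p under 0.05 there were 7 of 78 higher and 13 of 78 lower, beside 9.7% and 8.96% of all genes, and 0 passed, beside 0.0182%.

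Among 39 genes of mTORC1 signalling and TOP mRNA control 28 were above 0 in hypoglycaemic KO against wild-type livers, with a median of 0.14 and 0 called. Without wild-type replicate 1 there were 2 called, where 751 of all genes were. With array medians 1 was called, where 24 of all genes were, and in the deposited values 1, where 50 were. Without the library labelled hypoglycaemic KO replicate 2 it was 1, where 138 of all genes were called. Ddit4, an mTORC1 inhibitor induced by stress, had the largest difference of the genes named here. It read 4.10 to 6.82 with a median of 5.95 in hypoglycaemic KO livers, 3.19, 2.78 and 2.88 in normoglycaemic KO livers and 3.78, 2.47, 3.19, 2.67 and 3.07 in wild-type livers. Every hypoglycaemic KO liver lay above every other liver, 5.96-fold above wild type on average (difference 2.58, SE 0.43, limma adjusted p = 0.0591), and the p did not pass over all genes. Sesn2, a leucine sensor that holds back mTORC1, differed by 0.54 (SE 0.15, limma adjusted p = 0.11) and Larp1 by 0.13 (SE 0.07). Eif4ebp1, the translation repressor that mTORC1 phosphorylates, differed by 0.15 (SE 0.1). Myc, a transcription factor that drives ribosome genes, read 1.55 to 2.71 with a median of 1.66 in hypoglycaemic KO livers, 1.27, 1.38 and 1.11 in normoglycaemic KO livers and 1.21, 1.14, 1.20, 1.16 and 1.34 in wild-type livers. All 7 lay above the other 8 livers (difference from wild type 0.62, SE 0.17, limma adjusted p = 0.103).

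**Figure D4:**
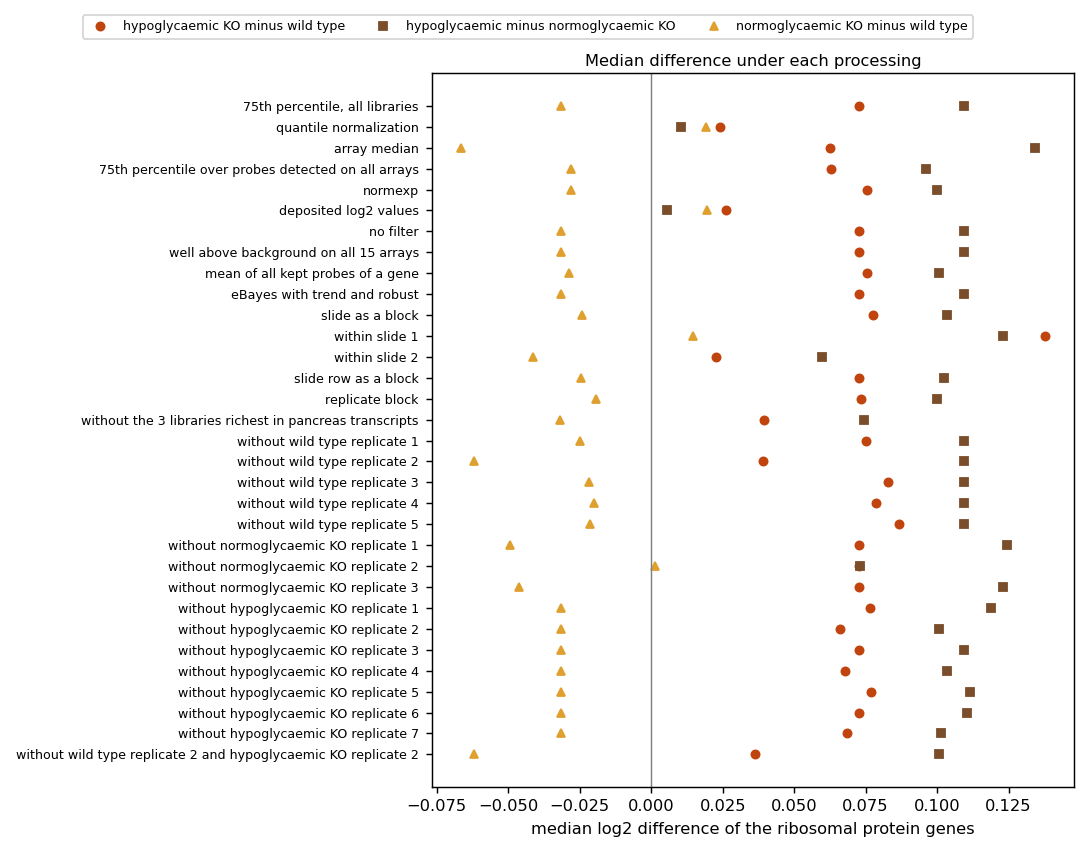
Median log2 difference of the 86 ribosomal protein genes (x axis) in 3 comparisons under each processing or set of livers (y axis). Hypoglycaemic KO minus wild type lies above 0 throughout, from 0.023 to 0.138, hypoglycaemic minus normoglycaemic KO from 0.006 to 0.134, and normoglycaemic KO minus wild type on both sides of 0.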

How the data were processed

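The authors deposited intensity values per spot of one-colour Agilent arrays, background-subtracted and detrended within each array by the scanner software, per the file headers. That software was Feature Extraction 10.10, per the submitters' processing notes. The authors also deposited log2 values, made with limma per the submitters' processing notes. These cover 40048 probes, share a maximum of 19.265 across arrays and served as an alternative. Coordinates of the arrays are mm9, per the file headers.

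Levels were log2 processed signals, each array being set to 0 at the 75th percentile of its non-control spots. Probes had to exceed background clearly on 3 or more of the 15 arrays, and the brightest probe stood for a gene (27542 genes). limma 3.58.1 in R 4.3.3 fitted 3 group means with 12 residual and 1.836 prior degrees of freedom, and a second model with a glucose slope per 10 mg/dl. The threshold was 0.05 for p-values adjusted over all genes by Benjamini and Hochberg. Confidence intervals are 95% intervals from that fit. The fit was tested on simulated data. Nothing in the labels ties pups to litters. The p-values rest on the spread between pups, which limma drew toward a spread shared by all genes. The subunit genes had a median SD of 0.067, against 0.25 over all genes, so this widened their standard errors. The number of arrays limits the precision.

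The members and lists were chosen with earlier results of these data known. Named were, per comparison, the 3 highest and 3 lowest members, the 3 smallest p of the slope, the 3 highest and 3 lowest SD, and a set of members and translation genes whatever their values. Some of these genes are not reported here. Alternatives were other scalings, background correction, filters, probe choices, a variance trend with robust fitting, slide blocks, replicate blocks and left-out livers. Only between normoglycaemic KO and wild type was r above 0 for every same-numbered pair of livers (0.226, 0.317 and 0.121 over all genes). By the rule used this counted as pairing. Each of these pairs also shared a slide, and both livers numbered 2 were rich in pancreatic transcripts. A true pairing cannot be told apart from these, and the labels do not say what a number marks. In the other comparisons r ran from −0.175 to 0.272. Python 3.11.15 with numpy 2.4.6, pandas 2.3.3, scipy 1.17.1 and matplotlib 3.10.9 did the rest.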

Additional observations from a re-analysis of the deposited data

Results flagged for a closer look

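Single livers lay far from the rest of their group (Dixon test at the 95% level) in 6 of 54 sets of values examined. Chance alone marks about 1 in 20 independent sets. These sets share livers, the subunit genes vary together, and some genes were named for extreme values, so the count cannot be set against that rate. Wild-type replicate 2 accounted for 4 of the 6. The median level of the subunit genes was 7.79 there, against 7.95 to 8.00 in the other wild-type livers. Rplp2 read 8.33, against 8.53 to 8.58. Rps6 read 7.66, against 7.87 to 7.94. Rpl22l1 read 5.95, against 6.26 to 6.37. In wild-type replicate 1 Rps27l read 5.76, against 6.03 to 6.12. In hypoglycaemic KO replicate 7 Rpl10l read −4.87, against −8.10 to −7.63, a probe that is at background on most arrays.

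Among the members named by the rule above, 3 had all hypoglycaemic and all normoglycaemic KO livers on opposite sides of the wild-type mean. Members that were not named, such as Rpl37 and Rpl35a, also met this, and the share over all genes was not counted. For Rpl22l1 the differences from wild type were 0.17 and −0.15, and the difference between the KO groups was 0.32 (limma adjusted p = 0.115). For Rps27 they were 0.10 and −0.11, and 0.21 between the KO groups (limma adjusted p = 0.178). For Rps3 they were 0.10 and −0.04, and 0.13 between the KO groups (limma adjusted p = 0.281). None of the 3 differences between the KO groups passed the test over all genes.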

How the results depend on the processing

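Under all 32 alternatives, and in the 3 group comparisons, both KO groups against wild type and the slope alike, 0 of the 86 genes passed. Their smallest adjusted p over the alternatives was 0.0548 for hypoglycaemic KO against wild type and 0.0506 for hypoglycaemic against normoglycaemic KO (limma). The count over all genes moved far more, from 0 to 751 around 5 in the first comparison and from 0 to 947 around 15 in the second. The median for hypoglycaemic KO against wild type was 0.1378 within slide 1, and 0.0227 to 0.0868 under the other alternatives on the 86 genes. The median for hypoglycaemic against normoglycaemic KO was 0.0105 after quantile normalization and 0.0055 in the deposited values, and the cause was not tested. Leaving out 1 liver at a time gave medians of 0.0392 to 0.0868 for hypoglycaemic KO against wild type, 0.073 to 0.1243 for hypoglycaemic against normoglycaemic KO, −0.062 to 0.0012 for normoglycaemic KO against wild type, −0.0094 to 0.0375 for both KO groups and −0.0315 to 0.003 for the slope.

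With the replicate number as a block the medians were 0.0733, 0.1 and −0.0192 in the same 3 comparisons, 0.0282 for both KO groups and −0.024 for the slope, and the replicate block changed no call of a ribosomal protein gene. Leaving out wild-type and hypoglycaemic KO replicate 2 together, or the paralogs, was added after the data were seen, and so were the repeats of the no-overlap counts, pairwise correlations, gene lists and glucose correlation under other scalings and sets of livers. Without the paralogs the medians were 0.0738, 0.1095 and −0.0308. Differences of a few hundredths lie within the reach of the scaling, and so does their direction for normoglycaemic KO.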
